A study of Rattus norvegicus with 20 samples.

Results

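Genes with higher RNA levels in the ventral than in the dorsal subiculum, in control rats and after seizure preconditioning alike, are described here. They were chosen on measured values. For each gene the read counts of a library were divided by that library's total and expressed per 1000000 counts (CPM). A gene was a member if its mean over the 10 ventral libraries was at least 5 CPM, if that mean was at least 4 times the mean over the 10 dorsal libraries, and if its lowest ventral value lay above its highest dorsal value. Of 32883 gene IDs, 85 met all 3 conditions. The ventral to dorsal difference of these genes is therefore given as a description, with no test.

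The subiculum is the main output station of the hippocampus. It receives input from field CA1 and from the entorhinal cortex, and it projects to cortical, thalamic, hypothalamic and amygdalar targets. Along its long axis the dorsal end is mostly tied to spatial and contextual memory circuits and the ventral end to circuits of stress, emotion and autonomic control. Principal cells at both ends differ in their gene expression, so that genes with a graded or sharply bounded level along the axis are used as positional markers. The perforant pathway carries entorhinal fibres into the hippocampal formation, and its electrical stimulation is used to provoke seizures in rats.

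RNA was sequenced from wild-type Wistar rats aged 3 months, which carried no transgene or engineered allele. The 4 groups were dorsal subiculum and ventral subiculum from control animals, and the same 2 regions taken 24 hours after a protocol named preconditioning in the labels. The series title describes acute seizures provoked by electric pulses to the perforant pathway. The tissue was cut out by laser microdissection from frozen sections, and stranded poly(A) libraries were prepared. Each group held 5 libraries. The labels do not say that the libraries of a group came from separate animals, so all p-values measure the spread between these libraries only. In such bulk tissue a lower level can come from fewer cells of a type or from less RNA per cell, and these cannot be told apart.

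The libraries held between 3087146 and 20463678 counts, and 3 counts corresponded to 0.147 to 0.972 CPM. The file gives Ensembl rat gene IDs without names, and 0 of the 32883 IDs matched the reference tables. The members are therefore described by ID, level and count, with no function, coordinate or sequence. For the same reason the labelled tissue was not checked against marker genes of the subiculum or of its neighbouring fields.

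At least 1 count was recorded for 21713 IDs, and 10738 of them reached a mean of 5 CPM in the ventral libraries. Of these 10738 genes, 101 were at least 4-fold higher in the ventral mean and 401 had no overlap between the regions. Both conditions held for the 85 members. Another 16 genes failed through overlap alone, 316 through the ratio alone, and 55 genes that met the other conditions lay under 5 CPM. With dorsal and ventral exchanged, the same rule found 54 genes.

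The members covered a wide range of levels. Their mean ventral level ran from 5.02 to 2734 CPM with a median of 19.0 CPM, and their mean dorsal level from 0.146 to 670.3 CPM with a median of 2.88 CPM. Mean ventral levels lay under 10 CPM for 21 members, between 10 and 100 CPM for 58, and at or above 100 CPM for 6. Most members were not silent in the dorsal subiculum. Their mean dorsal level was under 1 CPM for 18 members and at least 5 CPM for 27. Only 9 members had a dorsal library with 0 counts, and none had a ventral library with 0 counts.

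The ventral to dorsal ratio of the means ran from 4.08 to 65.9, with a median of 6.95. It lay between 4 and 5 for 22 members, between 5 and 10 for 39, and at 10 or above for 24. Of these 24 high-ratio genes, 12 had a mean ventral level under 10 CPM and 2 a level of at least 100 CPM. The lowest ventral library was at least 2 times the highest dorsal library for 47 members. In the heat map of all members, the step at the border between the regions is seen in every row.

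**Figure D1:**
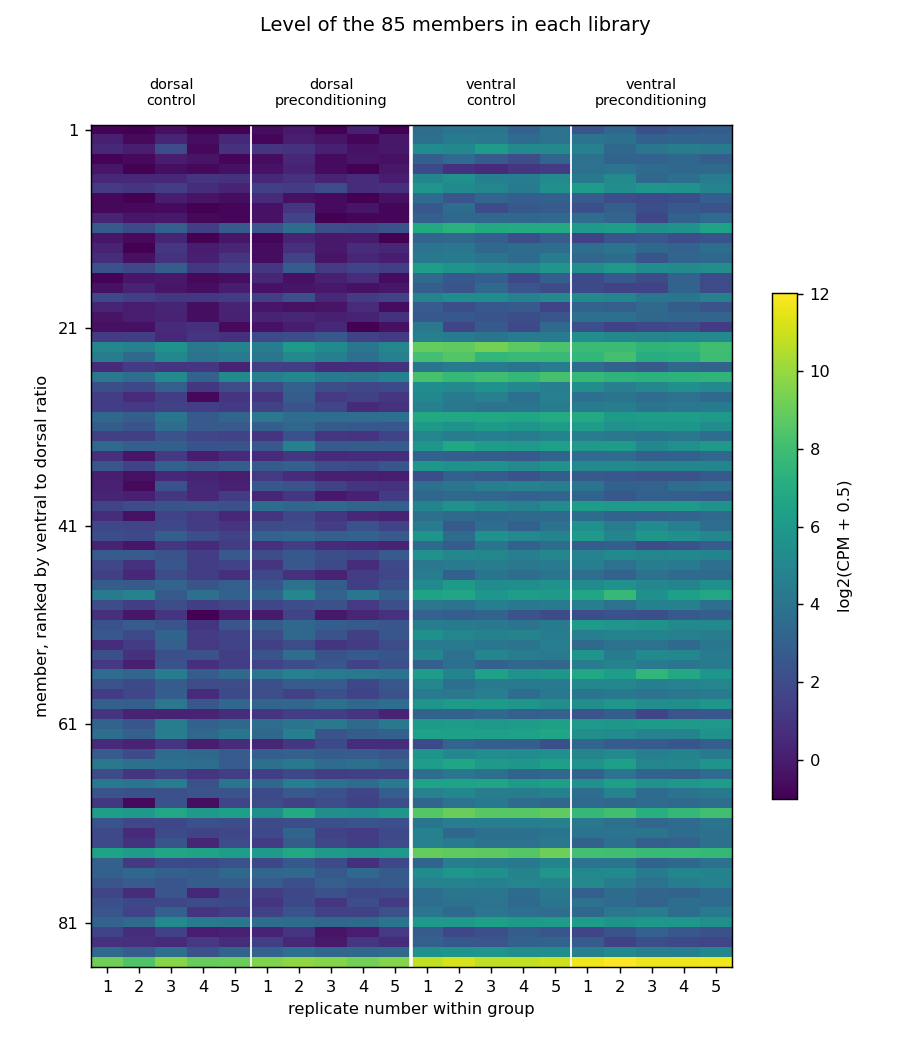
Level of each of the 85 members (rows, ranked by ventral to dorsal ratio from the top) in each of the 20 libraries (columns, by group and replicate number), as log2(CPM + 0.5) in colour. All 10 ventral columns are higher than all 10 dorsal columns in each row, as the rule requires, and the bottom row is the most abundant member, with a mean of 2734 CPM in the ventral libraries.

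ENSRNOG00000007552 had the largest ratio, 65.9. Its levels in ventral control libraries 1 to 5 were 11.99, 15.3, 16.1, 8.11 and 14.5 CPM, and in ventral preconditioning libraries 1 to 5 they were 4.84, 9.32, 4.03, 5.46 and 6.69 CPM. In dorsal controls it had 0.0507 CPM in library 1, 0.216 CPM in library 3 and 0 counts in the other 3, and in dorsal preconditioning libraries it reached at most 0.597 CPM, with 2 of the 5 at 0 counts. The gene was thus close to the detection floor in the dorsal subiculum: its dorsal total was 4 counts over the 5 controls and 16 counts over the 5 preconditioning libraries. Its ratios of 247 in controls and 25.4 after preconditioning rest on these few counts.

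ENSRNOG00000052017 had the next largest ratio, 32.1, with ratios of 28.7 in controls and 38.5 after preconditioning. Its level in ventral controls was 13.3, 19.3, 17.2, 11.04 and 14.2 CPM in libraries 1 to 5, against 14.7, 13.3, 7.62, 8.50 and 8.09 CPM after preconditioning. All dorsal libraries lay between 0.0664 and 0.879 CPM. The ventral ranges of the conditions overlapped, and the ventral log2 fold change of -0.50 ± 0.22 (SE) did not pass the test (edgeR adjusted p = 0.259).

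The most abundant member, ENSRNOG00000024923, had the lowest ratio of all, 4.08. Its levels in dorsal controls 1 to 5 were 581, 348, 836, 507 and 537 CPM, and in the dorsal preconditioning libraries 747, 935, 808, 636 and 768 CPM. In ventral controls they were 1796, 2374, 1763, 1786 and 2141 CPM, and in ventral preconditioning libraries 3449, 4124, 3243, 3260 and 3403 CPM. All 5 treated ventral libraries lay above all 5 ventral controls, whereas the dorsal ranges overlapped. This gene alone made up a large part of the members' summed level, so that sums are given below with and without it.

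The conditions of the rule cut through a continuous range of values. The lowest ratios inside were 4.08, 4.10 and 4.14, and the 3 values just outside, in genes that met the other conditions, were 3.93, 3.95 and 3.96. The lowest mean ventral levels inside were 5.02, 5.16 and 5.27 CPM, against 4.73, 4.88 and 4.92 CPM just outside. The smallest quotients of lowest ventral to highest dorsal library inside were 1.003, 1.08 and 1.09, and just outside 0.970, 0.972 and 0.978. With a 6-fold minimum in place of 4-fold, 51 of the 85 genes remained.

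Summed over the members, the ventral level was 6108 ± 494 CPM (SD, n = 5) in controls and 6527 ± 646 CPM after preconditioning. The dorsal sums were 1094 ± 314 CPM and 1327 ± 274 CPM. Without the most abundant member the ventral sum was 4136 ± 313 CPM in controls and 3031 ± 320 CPM after preconditioning, and these ventral ranges, 3591 to 4348 CPM and 2666 to 3391 CPM, did not overlap. The dorsal sums without that member were 532 ± 142 CPM and 548 ± 173 CPM. Most of the ventral difference without that member lay in the 16 members called lower in the ventral fit below, with mean sums of 2111 and 1114 CPM. These 16 were picked by their call in the same libraries, so their fall is a description only. The 61 members not called in that fit summed to 1923 and 1698 CPM. The median member stood at 21.1 ± 2.11 CPM in ventral controls, 17.9 ± 1.53 CPM in ventral preconditioning libraries, 2.67 ± 0.955 CPM in dorsal controls and 3.13 ± 0.626 CPM in dorsal preconditioning libraries.

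The members varied more between libraries in the dorsal than in the ventral groups. Their coefficient of variation, the SD as a percentage of the mean of 5 libraries, had a median of 44.7% in dorsal controls, 47.1% in dorsal preconditioning libraries, 23.2% in ventral controls and 25.2% in ventral preconditioning libraries. Over all 10738 genes with a mean ventral level of at least 5 CPM these medians were 16.4%, 12.7%, 14.8% and 14.5%. The members' dorsal levels are low, and how much counting error adds to their dorsal spread was not tested.

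Part of that spread was shared between members. In dorsal control 3, 71 of the 85 members lay above the mean of the other dorsal controls, with a median difference of 0.65 on the log2(CPM + 0.5) scale, against 0.05 for all 13429 genes with a mean of at least 1 CPM. In dorsal preconditioning 2, 70 members lay above the rest of their group, with a median difference of 0.56 against 0.09 for all genes. In the ventral region, ventral control 4 and ventral preconditioning 3 stood on the low side. The median differences were -0.23 and -0.24, with 14 and 25 members above the rest of the group, against 0.02 and 0.03 for all genes. These 4 libraries lay towards the other region's level. Others lay away from it: the median difference was -0.36 in dorsal control 2, -0.30 in dorsal control 4, -0.35 in dorsal preconditioning 4 and 0.23 in ventral preconditioning 1, with 19, 25, 22 and 59 members above the rest of the group. What these libraries share was not tested.

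The same libraries set the edge of many members' range. Dorsal preconditioning 2 held the highest dorsal value for 33 of the 85 members and dorsal control 3 for 20, whereas each other dorsal library did so for 1 to 7. Ventral preconditioning 3 held the lowest ventral value for 29 members, and each other ventral library for 3 to 10. Without dorsal preconditioning 2 the rule gave 98 genes, which included all 85 members, and without both dorsal libraries it gave 101 genes, of which 84 were members. Left out singly, the other libraries gave 81 to 91 genes.

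**Figure D2:**
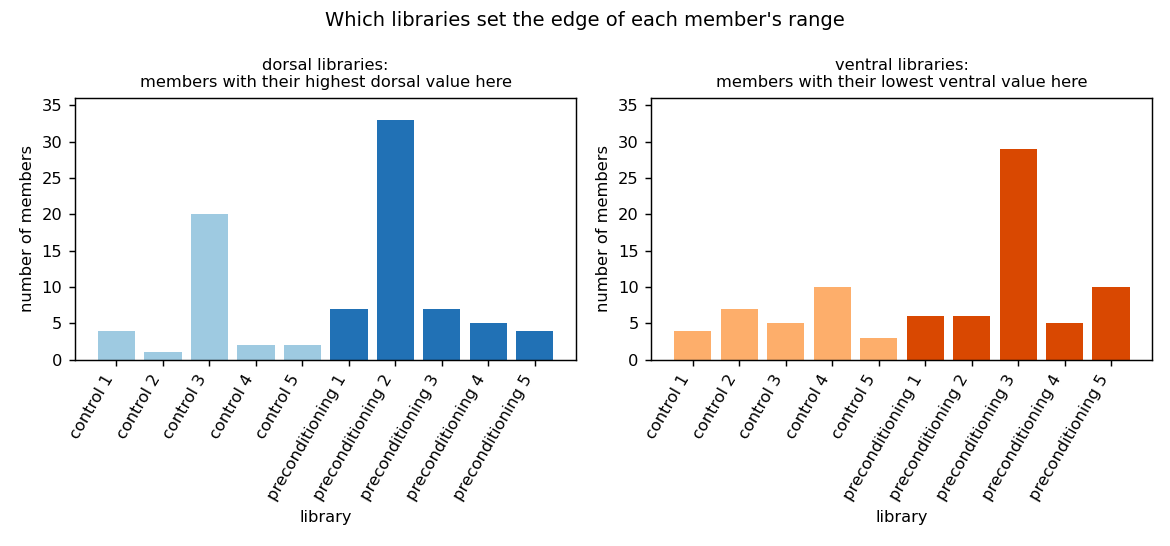
Number of members (vertical axis) whose highest dorsal value (left) or lowest ventral value (right) was found in each library (horizontal axis). Dorsal preconditioning 2 with 33 members, dorsal control 3 with 20 and ventral preconditioning 3 with 29 stand above the other libraries.

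The rule placed every ventral library above every dorsal one, so a higher ventral level within each condition was fixed by the choice. The size of the ratio in each condition is described here. The ratio was at least 4 for 80 members in the controls and for 68 after preconditioning, and for 63 in both. Its median was 8.16 in controls, with a range of 3.47 to 247, and 5.98 after preconditioning, with a range of 2.82 to 40.9. The ratio was larger in controls for 67 members and larger after preconditioning for 18. Applied to the controls alone the rule gave 107 genes, of which 77 were members (90.6% of the members and 72.0% of those genes). Applied to the preconditioning libraries alone it gave 79 genes, of which 62 were members (72.9% and 78.5%). Both conditions taken separately were passed by 57 genes, 55 of them members, or 64.7% of the members and 96.5% of those genes.

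In fits across all genes, all 85 members were called higher in the ventral region in controls, where 25.7% of 13509 genes were called in either direction, and all 85 after preconditioning, where 26.7% of 13640 genes were called. The rule used these contrasts, and nothing is read from these counts. The fitted log2 difference between the regions had a median of 2.86 over the members in controls and 2.62 after preconditioning.

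**Figure D3:**
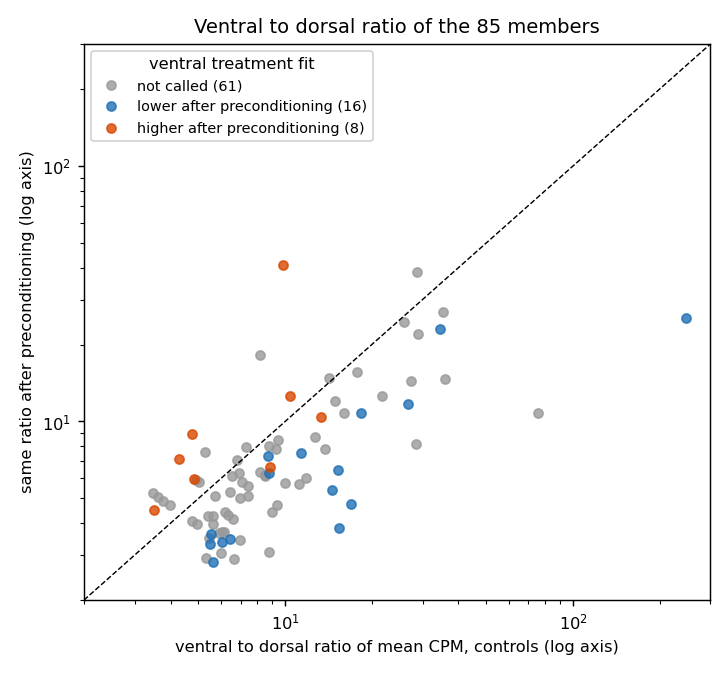
Ventral to dorsal ratio of mean CPM for each member in controls (horizontal log axis) and after preconditioning (vertical log axis), with the line of equal ratios dashed. Colours mark the 16 members called lower and the 8 called higher after preconditioning in the ventral region. The ratio was larger in controls for 67 of the 85 members (points under the line), among them all 16 called lower.

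How preconditioning moved these genes in the ventral subiculum was tested on the 10 ventral libraries, in a contrast that the rule did not use. Of the 85 members, 24 changed (adjusted p under 0.05): 16 were lower and 8 higher 24 hours after the protocol. That is 28.2% of the members, where 5.06% of all 13291 genes tested were called, 2.12% lower and 2.93% higher. Among the 10738 genes with a mean ventral level of at least 5 CPM, 577 or 5.37% were called, and among the 316 genes that failed through the ratio alone, 23 or 7.28%. The rule limits what can be seen here. A gene that fell to the dorsal range after treatment, or rose to the ventral range in the dorsal region, overlapped and was left out. So was a gene whose ventral controls lay in the dorsal range and that rose in the ventral region after treatment. Of the 16 genes left out through overlap alone, 7 were called in this fit, 5 higher and 2 lower.

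Estimates were negative for 62 members and positive for 23. The members' log2 fold changes ran from -1.29 to 2.88 with a median of -0.30, against a median of -0.01 over all genes tested. At an unadjusted p under 0.05, 35 members were lower and 12 higher, against 1158 lower and 1236 higher of the 13291 genes tested. The 5 treated and 5 control libraries did not overlap for 18 members (21.2%), with the controls above for 11 and the treated libraries above for 7. Over all genes tested, 6.99% showed no overlap.

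The 16 members called lower fell by 0.44 to 1.22 on the log2 scale, with a median of -0.95. Of these, 5 fell at least 2-fold. They were picked by their call in these same libraries. Their lower ventral sum and ratio after preconditioning are therefore a description and no further result. Their summed level was 2111 ± 148 CPM (SD, n = 5) in ventral controls, between 1858 and 2245 CPM, and 1114 ± 141 CPM after preconditioning, between 914 and 1219 CPM. Their dorsal sum was 261 ± 65.5 CPM in controls and 236 ± 98.5 CPM after preconditioning. The ventral to dorsal ratio of all 16 was larger in controls, with a median of 13.0 there and 5.86 after preconditioning.

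The 8 members called higher rose by 0.78 to 2.88 on the log2 scale, with a median of 1.16. Of these, 5 rose at least 2-fold. They too were picked by their call, so their higher ventral sum after preconditioning is a description. Their summed ventral level was 2074 ± 282 CPM in controls and 3715 ± 373 CPM after preconditioning, most of it from ENSRNOG00000024923. In the dorsal region they summed to 577 ± 178 CPM and 806 ± 111 CPM. The ratio was larger after preconditioning for 6 of the 8, and its median was 6.83 in controls and 8.05 after preconditioning. The 61 members that were not called summed to 1923 ± 180 CPM in ventral controls and 1698 ± 179 CPM after preconditioning.

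Called members were found at each level of abundance. Of the 6 members with at least 100 CPM, 4 were lower and 1 higher. Of the 58 members between 10 and 100 CPM, 11 were lower and 5 higher, and of the 21 under 10 CPM, 1 was lower and 2 higher. By ratio, 5 of the 24 members at 10 or above were lower and 3 higher, against 11 and 5 of the 61 members under 10. Among all genes with a mean ventral level of at least 5 CPM, 5.37% were called. The shares of all genes called within each of these classes were not counted, so nothing about the members is read from the split.

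The number of members called lower depended on single libraries. It was 8 without ventral control 5, 7 without ventral preconditioning 4, 9 without ventral control 3 and 9 without ventral preconditioning 3. The number of all genes called lower moved as well, from 282 in the main fit to 163, 156, 190 and 212 in the same order. The members called lower rose to 20 without ventral control 2 (428 of all genes) and to 17 without ventral preconditioning 2 (239 of all genes). Without ventral control 4 and ventral preconditioning 3 together 11 members and 143 of all genes were called lower. The number of members called higher was 7 or 8 in these fits. The members' median stayed between -0.37 and -0.19 when each ventral library was left out in turn.

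**Figure D4:**
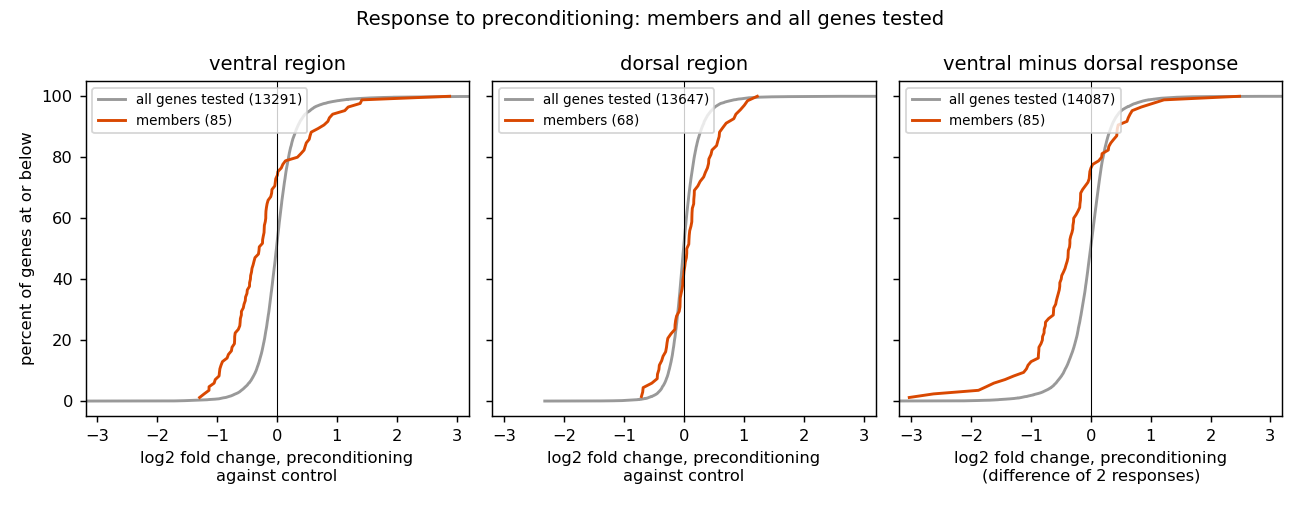
Cumulative percentage of genes (vertical axis) by log2 fold change after preconditioning (horizontal axis) in the ventral region, the dorsal region, and for the ventral minus the dorsal response, for the members and for all genes tested. The members' median lies at -0.30 in the ventral panel, at 0.06 in the dorsal panel and at -0.36 in the panel of the difference, and that of all genes between -0.01 and -0.00 in each. Values beyond the axis limits are not shown.

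ENSRNOG00000026036 had the largest fall among the called members. Its ventral control libraries 1 to 5 were at 85.5, 84.4, 79.95, 86.5 and 101 CPM and its ventral preconditioning libraries at 42.3, 37.8, 26.5, 27.4 and 48.8 CPM. The 2 ventral groups did not overlap, and the log2 fold change was -1.22 ± 0.16 (SE, adjusted p = 0.000599). The dorsal libraries lay between 4.55 and 24.3 CPM, with the highest value in dorsal preconditioning 2, and the dorsal log2 fold change of -0.45 ± 0.38 did not pass (adjusted p = 0.835).

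ENSRNOG00000051993 showed the next largest fall among the called members. It stood at 15.9, 19.6, 20.8, 16.2 and 22.5 CPM in ventral controls and at 11.4, 7.78, 5.71, 9.52 and 8.29 CPM after preconditioning, a log2 fold change of -1.14 ± 0.18 (adjusted p = 0.00153). Every treated library lay under every control. Dorsal levels were 1.30 ± 0.473 CPM (SD, n = 5) in controls and 1.58 ± 0.591 CPM after preconditioning and overlapped, with a dorsal log2 fold change of 0.27 ± 0.34 (adjusted p = 0.908).

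The gene with the largest regional ratio, ENSRNOG00000007552, whose libraries are given above, was also called lower. Its ventral mean was 13.2 ± 3.22 CPM in controls and 6.07 ± 2.06 CPM after preconditioning, and the ranges overlapped, since ventral control 4 at 8.11 CPM lay under ventral preconditioning 2 at 9.32 CPM. The log2 fold change was -1.05 ± 0.25 (adjusted p = 0.0246). Without ventral control 3 or 5, or ventral preconditioning 1, 3 or 4, the adjusted p was between 0.0538 and 0.0706, and with all 20 libraries in one fit it was 0.0502, so that the call was lost in these fits.

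ENSRNOG00000017712 had the largest rise of any member. In ventral controls it was at 3.24, 1.34, 0.975, 1.61 and 1.94 CPM and after preconditioning at 14.4, 15.1, 11.2, 9.65 and 10.6 CPM, a log2 fold change of 2.88 ± 0.24 (adjusted p = 1.21e-05). The treated libraries all lay well above the controls. In the dorsal region it stayed at or under 0.667 CPM in every library, with 15 counts in all over the controls and 17 over the preconditioning libraries, too few to pass the filter of the dorsal fit. Its ratio was 9.84 in controls and 40.9 after preconditioning, the highest of any member after preconditioning.

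ENSRNOG00000017307 had the next largest rise among the called members. Ventral controls stood at 21.4, 19.3, 17.9, 14.9 and 20.3 CPM and ventral preconditioning libraries at 68.3, 54.4, 49.5, 36.3 and 35.4 CPM, a log2 fold change of 1.42 ± 0.18 (adjusted p = 0.00037). The lowest treated library was above the highest control. Dorsal levels were 4.39 ± 1.83 CPM in controls and 6.84 ± 1.92 CPM after preconditioning and overlapped, and the dorsal log2 fold change of 0.56 ± 0.30 did not pass (adjusted p = 0.685). ENSRNOG00000024923, the most abundant member, rose in the ventral region by 0.85 ± 0.13 on the log2 scale (adjusted p = 0.00115), and its dorsal estimate of 0.41 ± 0.17 did not pass (adjusted p = 0.539).

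**Figure D5:**
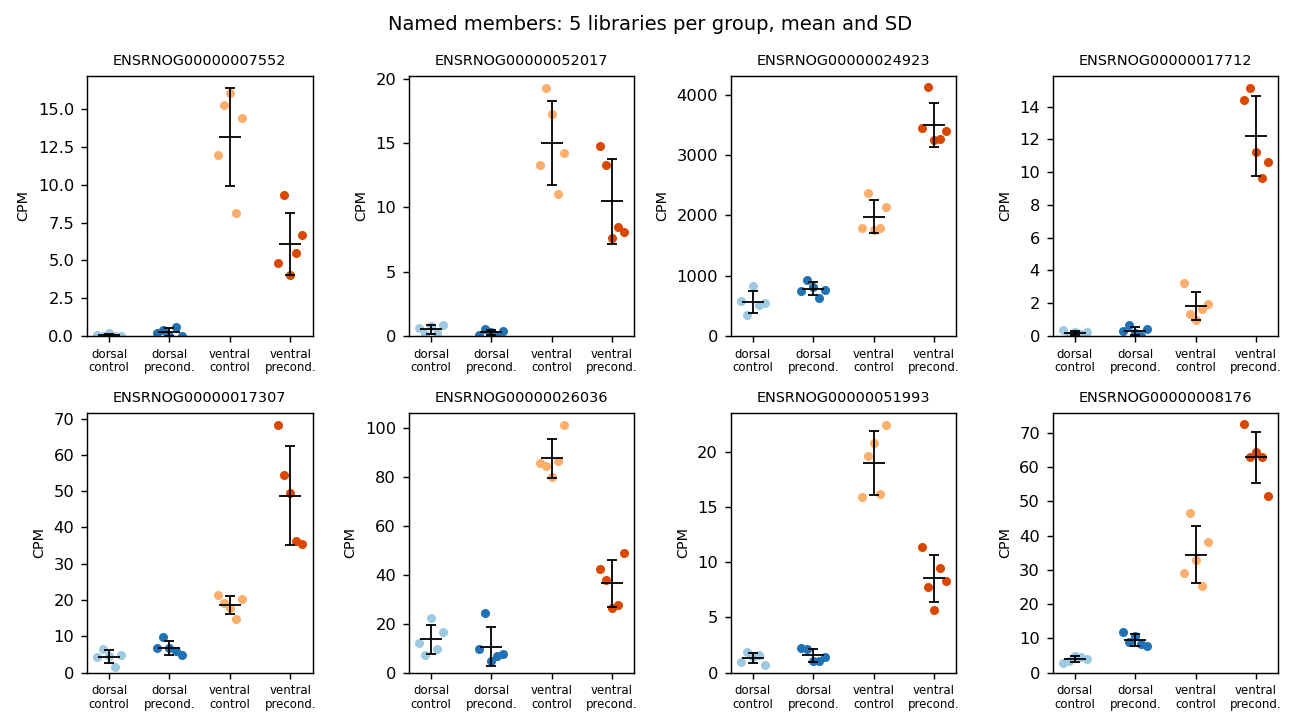
CPM of the 8 members named in the text in the 4 groups, with 1 point per library, the mean as a horizontal line and the SD as error bars (n = 5), each panel on its own linear axis from 0. In the lower row, ENSRNOG00000008176 is the member that was called higher after preconditioning in the dorsal as well as in the ventral region.

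In the dorsal subiculum the members showed few changes after preconditioning. Of the 85 members, 68 had enough counts to be tested in the 10 dorsal libraries and 17 did not. Of the 68, 1 was called, in the higher direction, where 0.271% of all 13647 genes tested were called, 0.213% higher and 0.0586% lower. None was called lower by edgeR, with 1 lower at an unadjusted p under 0.05 and 0 called lower by DESeq2. At that unadjusted level 6 members were higher, and over all genes tested 582 were lower and 525 higher. Estimates were positive for 40 members and negative for 28, with a median of 0.06 against -0.01 for all genes. The treated and control ranges did not overlap for 2 of the 68 members (2.94%), against 2.23% of all genes tested.

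The called gene was ENSRNOG00000008176. Its dorsal controls stood at 2.69, 3.49, 4.75, 4.56 and 3.95 CPM and its dorsal preconditioning libraries at 11.8, 9.01, 10.6, 8.36 and 7.66 CPM, a log2 fold change of 1.22 ± 0.20 (adjusted p = 0.0152). It rose in the ventral region too, from 29.2, 46.5, 33.0, 25.3 and 38.3 CPM to 72.4, 62.8, 64.3, 63.1 and 51.7 CPM, a log2 fold change of 0.88 ± 0.17 (adjusted p = 0.00596). In neither region did the conditions overlap. The dorsal call was lost without dorsal preconditioning 1 (adjusted p = 0.058) and without dorsal preconditioning 3 (adjusted p = 0.0553), and with the replicate number as a block (adjusted p = 0.0521). The difference between its responses, -0.35 ± 0.25, did not pass (adjusted p = 0.879).

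ENSRNOG00000011094 was the other member without overlap between the dorsal conditions, named here after its values were seen. Its dorsal log2 fold change was 0.94 ± 0.33, with an adjusted p of 0.389. The dorsal result also moved with the libraries that stood apart. The members' dorsal median was 0.28 without dorsal control 3, -0.10 without dorsal preconditioning 2 and 0.06 without both, and 2, 2 and 3 members were called.

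The dorsal estimates of the called members are set side by side here, and no difference between them was tested. Of the 16 members called lower in the ventral region, 14 were tested in the dorsal region, with 6 negative and 8 positive estimates between -0.71 and 1.06 and a median of 0.04. Of the 8 called higher, 6 were tested there, and all 6 estimates were positive, between 0.33 and 1.22 with a median of 0.63, although 1 passed the test. Over the 68 members tested in both regions, 25 had negative and 16 positive estimates in both, 24 were negative in the ventral and positive in the dorsal region, and 3 the reverse.

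Whether the response differed between the regions was asked of all 20 libraries in a model with an interaction term. None of the 85 members was called by edgeR, where 0.0781% of 14087 genes were called, 0.071% with a higher and 0.0071% with a lower ventral response. At an unadjusted p under 0.05, 14 members had a lower and 4 a higher ventral than dorsal response, against 459 lower and 489 higher of all genes tested. DESeq2 called 2 members. With same-numbered dorsal and ventral libraries of a condition as a replicate block, 62 genes and 1 member were called, ENSRNOG00000043286, with a lower ventral response. The estimates were negative for 64 members, or 75.3%, with a median of -0.36 against -0.00 for all genes. This tilt was not particular to the members. Of the 49 genes tested that failed the rule through the 5 CPM limit alone, 79.6% were negative (median -0.58). Among genes that failed through the ratio alone 63.3% were negative (median -0.09), and through overlap alone 68.8% (median -0.58). The members' median was -0.55 without dorsal control 3, with 2 members called. It was -0.17 without dorsal preconditioning 2, with 52 negative estimates. Without both it was -0.32, with 62 negative estimates and 2 members called.

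The members called by DESeq2 were ENSRNOG00000017712, with a ventral response higher by 2.49 on the log2 scale (adjusted p = 0.0296), and ENSRNOG00000051993, with a difference of -1.44 (adjusted p = 0.0272). In edgeR the same differences were 2.48 ± 0.73 (adjusted p = 0.319) and -1.44 ± 0.36 (adjusted p = 0.18). ENSRNOG00000007552 had the most negative estimate, -3.03 ± 0.94 (adjusted p = 0.403), and with 20 dorsal counts in all this value is imprecise.

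The 16 genes that failed the rule through overlap alone are those on which the choice of members bears most. Their lowest ventral value lay in a control for 11 and in a preconditioning library for 5, and their highest dorsal value in a preconditioning library for 15 and in a control for 1. Dorsal preconditioning 2, which stood apart above, held that highest value for more of these genes than any other library did. Without it the rule gave 98 genes. The split by condition therefore rests in large part on this library. In the ventral fit 7 of these 16 were called, 5 higher and 2 lower, where 5.06% of all genes tested were called. ENSRNOG00000011824, singled out after its values were seen, had a ratio of 6.47. Its level was 1.17 ± 0.64 CPM (SD, n = 5) in ventral controls and 290.1 ± 89.5 CPM after preconditioning. In the dorsal region it was 0.663 ± 0.467 CPM in controls and 44.3 ± 15.6 CPM after preconditioning. The log2 fold changes were 8.0 ± 0.30 in the ventral region (adjusted p = 2.33e-09) and 5.88 ± 0.41 in the dorsal region (adjusted p = 1.59e-05). Its ventral to dorsal ratio was 1.76 in controls and 6.54 after preconditioning, and the difference between its regional responses, 2.13 ± 0.62 on the log2 scale, did not pass (adjusted p = 0.316).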

How the data were processed

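The authors deposited raw counts per gene for 20 libraries. Per the submitters' processing notes, STAR, DESeq2 and the build Rnor_5.0 were used; the counting tool, annotation and use of strand are not given in the sources used here, so reads of paralogs or overlapping genes may be split. Treated columns begin with e where sample titles begin with p; they were matched by number and region. Members and lists were chosen with earlier results of these data known. The tests were run in edgeR 4.0.16 under R 4.3.3 (filterByExpr, TMM, robust quasi-likelihood F-test), with Benjamini-Hochberg adjusted p-values under 0.05 over all genes tested; treatment and region fits used their own 10 libraries, the interaction all 20. The SE is the log2 fold change divided by the square root of F. CPM used column sums. The method was tested on simulated data.

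Genes were to be named as the largest ratios, the highest level, and the members called with the largest changes; without symbols, at most 2 IDs per direction are named. Planned gene lists, cell type markers and promoter motifs could not be applied, as 0 of 32883 IDs matched the reference tables. Same-numbered dorsal and ventral controls deviated together (correlations of 0.200 to 0.393, with 5 of 5 pairs over 0.1) and those after preconditioning less so (0.0376 to 0.368, 4 of 5), a hint of pairing from the data. The reported fits have no block, and a fit with one is an alternative. Alternatives were DESeq2 1.42.0, its size factors, no count filter, a replicate block, all 20 libraries in one fit, other limits of the rule and each library left out. Counting limits cover counting error only, because no molecular identifiers mark the original molecules.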

Additional observations from a re-analysis of the deposited data

Results flagged for a closer look

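In each group of 5 libraries, the levels of the 8 named members and the members' summed and median level were searched for a library whose gap to its nearest neighbour exceeded Dixon's 95% critical value of 0.71 of the group's range. Of 40 groups searched, 3 held such a library, and chance alone gives about 1 in 20. ENSRNOG00000007552 stood at 0.216 CPM in dorsal control 3, which is 3 counts, with the other dorsal controls between 0 and 0.0507 CPM. ENSRNOG00000024923 stood at 4124 CPM in ventral preconditioning 2, with the other libraries of that group between 3243 and 3449 CPM. ENSRNOG00000026036 stood at 24.3 CPM in dorsal preconditioning 2, with the others between 4.55 and 9.51 CPM. Dorsal control 3 and dorsal preconditioning 2 are also the dorsal libraries with the most members above the rest of their group, 71 and 70 of 85.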

How the results depend on the processing

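No call of the 8 named members changed direction in any alternative run, and the direction of other calls was not compared. The members' dorsal median changed sign without dorsal preconditioning 2, at -0.10, and without dorsal control 4, at -0.00. In the ventral fit, 672 genes and 24 members were called. DESeq2 called 1051 genes and 33 members, the replicate block 1261 genes and 43 members, and leaving out ventral control 4 with ventral preconditioning 3 called 373 genes and 18 members. Leaving out single libraries gave 432 to 1029 genes and 15 to 28 members. All 20 libraries in one fit gave 8 members lower and 8 higher. In the dorsal fit, with 37 genes and 1 member, DESeq2 called 167 genes, all 20 libraries in one fit 97, and the fit without dorsal control 3 and dorsal preconditioning 2 called 99 genes and 3 members. With the replicate block 0 dorsal members were called, and single libraries left out gave 15 to 50 genes and 0 to 2 members. The added dorsal calls were ENSRNOG00000060614 (higher) and ENSRNOG00000013162 (lower). For the interaction, with 11 genes and 0 members, DESeq2 called 54 genes and 2 members, the replicate block 62 genes and 1 member (ENSRNOG00000043286), and the fit without both dorsal libraries 18 genes and 2 members. Single libraries left out gave 6 to 20 genes and 0 to 2 members. A 6-fold minimum left 51 members, and the other limits, scalings, single conditions and left-out libraries 64 to 123 genes, beside the 57 that passed in both conditions taken separately. The cause of these differences was not tested. Fits that left out pairs of libraries were chosen after seeing the data.

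Same-numbered ventral libraries of both conditions correlated at -0.0135 to 0.389 (3 of 5 pairs over 0.1) and dorsal ones at -0.222 to 0.0794 (0 of 5). The mean correlation was 0.148 for the ventral and -0.026 for the dorsal pairs. The best match of a control was the treated library of its own number for 2 of 5 ventral and 0 of 5 dorsal controls. In the treatment fits the block pairs libraries by number. Beyond these correlations, whether same-numbered libraries share anything was not tested. In the region fits the block and the other alternatives moved the counts by less than 1.5 times, with all 85 members called. The IDs have no names, so cell composition was not checked, and at dorsal levels under 1 CPM in 18 members small differences were not detectable.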

Other observations

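The 54 genes that met the rule with dorsal and ventral exchanged give values for the opposite pattern. Of these, 49 were tested in the ventral fit, with a median log2 fold change of -0.12. There edgeR called 1 higher and 1 lower after preconditioning (4.08%), against 5.06% of all genes tested. DESeq2 called 3 of the 54 in each direction, against 592 higher and 459 lower of 20572 genes. In their own, dorsal region all 54 were tested. The median there was -0.20. At an unadjusted edgeR p under 0.05, 17 were lower and 3 higher, against 582 lower and 525 higher of all 13647 genes tested. After adjustment edgeR called 0 of the 54, against 0.271% of all genes. DESeq2 called 5 lower and 2 higher, against 64 lower and 103 higher of 20612 genes. Their regional difference on the log2 scale, which the rule fixed in sign, had a median of -2.77 in controls and -2.58 after preconditioning. Another 46 genes tested in the ventral fit were separated between the regions with at least a 4-fold ratio but lay under 5 CPM. Of these, 3 were called lower and 3 higher (13.0%), against 5.06% of all genes tested.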
